A study of Oryza sativa with 12 samples.

Results

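The genes described here are 38 rice genes whose names mark them as heat stress transcription factors (HSF) or heat shock proteins (HSP). A gene was a member if its symbol or a synonym in the RefSeq annotation began with HSF or HSP after a leading Os was removed, and 5 small heat shock protein genes (HSP18.0, hsp17.9, HSP24.1, HSP18.6 and HSP18.8) were left out by the same rule. Of 49 genes with such names, 44 remained, and 38 of these had a probe set matched to them alone, out of 17905 genes with such a probe set in all. The other 6 (HSFA6A, HSFB4C, HSFC2B, HSP16.9C, HSP18.9 and HSP19.0) had no matched probe set and were not analysed here. The members are 20 heat stress factors (12 of class A, 5 of class B and 3 of class C), the HSP100 gene hsp101, 3 HSP90 genes (HSP81-1, HSP81-2 and HSP81-3) and 14 small heat shock proteins. The working name of the group, heat stress factors and larger heat shock proteins, therefore covers only part of it. The rule took in no HSP70 or HSP60 gene. Where a gene had several probe sets, as 12 members did, the one with the highest mean over the arrays stood for it.

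Heat stress factors are transcription factors that bind heat shock elements in promoters and are released from chaperones when proteins lose their fold. In plants, class A factors carry an activation domain, while class B and class C factors lack it, and class B factors of Arabidopsis are known as repressors that also damp the heat response. Their targets include HSP90, which holds client proteins such as the factors themselves, HSP100, which pulls proteins out of aggregates, and the small heat shock proteins, which bind unfolding proteins before they aggregate. Many of these genes are also known to respond to water loss in leaves.

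Leaf RNA was measured in plants aged 2.5 months, taken from the youngest leaf that had fully opened, on 12 Affymetrix rice arrays, 3 per group. The groups were osnox2 drought (15 days after the drought treatment began, soil moisture 8.5 ± 2.1%), osnox2 control (day 0, soil moisture 47.3 ± 1.9%), WT drought (day 15) and WT control (day 0). The mutant osnox2 carries a T-DNA insertion, and WT is the japonica cultivar Dongjin. The study's title names the NADPH oxidase OsRbohA, an enzyme that makes superoxide at the plasma membrane, and asks for its part in the response to drought. The annotation gives no gene that name, so the disrupted gene's own level, which would check the labels, is not given here. A single mutant line was compared with WT, so the insertion and any other difference of that line cannot be told apart. All plants grew in a greenhouse at 36 °C by day and 28 °C by night, and plants of both genotypes stood in the same pots. Drought and the day of harvest cannot be told apart.

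Values are log2 MAS5 signals, the authors' summary of each probe set, and every change below is a log2 difference of group means ± SE from limma. Array medians were 5.08 to 5.43 on the log2 scale, so a value near 5 or below is dim. Adjusted p-values are Benjamini-Hochberg values over the 32012 probe sets kept, and a gene was called at an adjusted p under 0.05. Of the 38 members, 35 were kept, that is, above the array's median on at least 3 arrays. HSP26.7, HSP23.2 and HSP16.0 were not kept. They read 0.99 to 5.13, 1.47 to 5.68 and 1.14 to 6.45 over the 12 arrays. Precision is limited by the number of arrays. In whole leaves, a smaller share of a cell type and less RNA per cell cannot be told apart.

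Before any comparison, 3 control arrays stood apart from the other 9: osnox2 control 1, osnox2 control 2 and WT control 1 (named by group and replicate). They lay together on the first principal component, computed without any HSF or HSP probe set, which held 35.8% of the variance. The clock gene LHY read 13.51 to 13.79 on them and 7.31 to 8.99 on the other 9. Their correlations with the other 9 arrays were 0.868 to 0.895, and 0.932 to 0.954 among themselves. Counts of calls and the changes of the genes given in full are therefore stated with all 12 arrays and without these 3. The osnox2 control then keeps 1 array, whose spread is taken from the other groups, and the WT control 2. Of 7 genes matched by a leaf marker pattern, 6 were kept, although 1 of these, RCAR5, is an ABA receptor gene and no leaf marker. The log2 of the list's summed signal was 16.81 to 16.95 in osnox2 drought, 16.74 to 17.63 in osnox2 control, 16.81 to 17.0 in WT drought and 16.61 to 17.31 in WT control. The pollen marker TDR and the root markers Lsi2 and OsCASP1 were not kept, while the root gene Lsi1 (8.01 to 9.62) and 4 of 9 endosperm genes were.

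The drought comparisons ask which of these genes followed the loss of soil water in each genotype. With all 12 arrays, limma called 0 of 35 members in osnox2 and 0 of 35 in WT, although 10 in osnox2 and 13 in WT had an unadjusted p under 0.05. Of all 32012 probe sets, 5765 in osnox2 and 3461 in WT had such a p. Few probe sets were called at all. In osnox2 0.291% of all probe sets were called higher and 0.241% lower, and in WT 0.0843% higher and 0.0469% lower. The members' median change was 0.559 in osnox2 and 0.654 in WT, beside 0.0838 in osnox2 and 0.0167 in WT over all probe sets, and 28 of the 35 changes were above 0 in each genotype. Both comparisons use separate arrays but share the estimate of the spread. Leaving out osnox2 control 3 alone gave 8 calls in osnox2 (7 higher, and HSP22.3 lower), with a median of 0.116, where 17.2% of all probe sets were called either way. The osnox2 control then held only arrays that stood apart. The same fit gave 5 higher in WT, where 0.615% of all probe sets were called. Leaving out WT control 1 gave 6 higher in osnox2, beside 2.49% of all probe sets.

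Taken over both genotypes, a contrast added after the data were seen, 8 of 35 members rose with drought and 0 fell. Over all probe sets 2.57% were called higher and 1.47% lower in that contrast. The members were hsp101, HSFA2E, HSFB1, HSFB2B, HSP16.9A, HSP16.9B, HSP17.7 and HSP26.2. Leaving out 1 array at a time gave 4 to 14 calls. The lowest count came without WT drought 2, where 1.06% of all probe sets were called either way. The counts without osnox2 drought 2 or osnox2 drought 3 were 5 each, beside 1.2% and 1.5% of all probe sets. The highest count, 13 higher and HSP22.3 lower, came without osnox2 control 3, where 19.0% of all probe sets were called. Without the 3 arrays that stood apart, 29 of the 35 changes over both genotypes were above 0. The members' median in that fit was 0.585, beside -0.0035 over all probe sets.

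Without those 3 arrays, 10 members rose in osnox2 and 9 in WT, and 0 fell in either. Over all probe sets 1.07% were called higher and 0.375% lower in osnox2, and 1.52% higher and 1.45% lower in WT. In both genotypes the risers included HSFA2E, HSFB2A, HSFB2B, HSFB2C, HSP17.4, HSP18.1, HSP81-1 and hsp101. HSFA2C and HSP17.9B were called in osnox2 and HSP26.2 in WT, differences between the genotypes that are given with their own test below. The members' median was 0.712 in osnox2 and 0.523 in WT, beside 0.0131 in osnox2 and -0.0263 in WT over all probe sets.

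**Figure D1:**
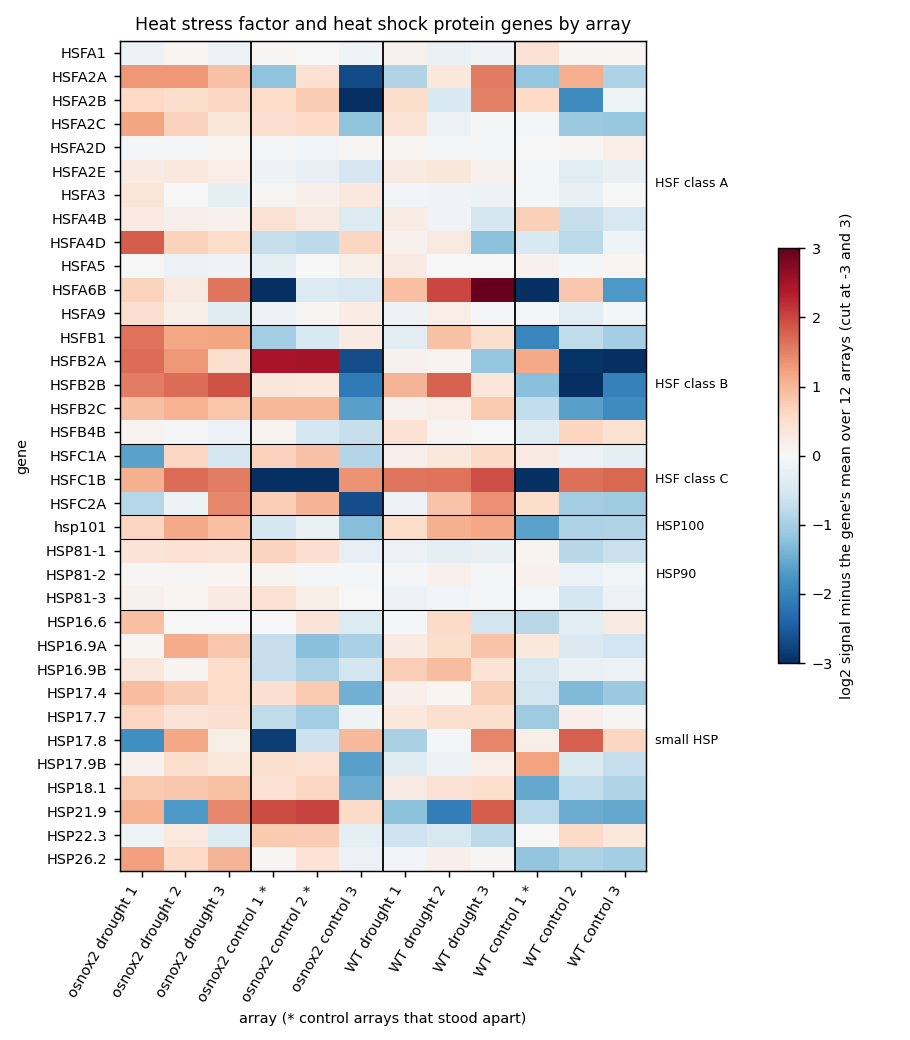
Log2 signal of the 35 kept members on each of the 12 arrays, shown as the difference from the gene's own mean and limited to -3 and 3. Columns run by group, an asterisk marks the 3 control arrays that stood apart, and rows are grouped by class. The drought columns are red for HSFB2B and hsp101 in both genotypes, and HSFC1B is blue on the 3 marked arrays only.

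The array readings of single genes show where these counts come from. Of the 35 members, 5 read higher on all 6 drought arrays than on all 6 control arrays (hsp101, HSFA2E, HSFB2B, HSP16.9B and HSP17.7), as did 2.86% of all probe sets. Against the 3 control arrays that did not stand apart, 14 members were above on all 6 drought arrays, as were 7.06% of all probe sets. No member lay below on all 6 drought arrays in either case, while 1.52% of all probe sets lay below all 6 control arrays and 6.27% below the other 3. A drought array gave the highest reading for 22 of the 35 members, and over all probe sets for 42.7%.

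Among class A factors, the activators, HSFA2E was the one called over both genotypes with all 12 arrays. HSFA2 factors are heat-inducible activators in Arabidopsis and tomato. HSFA2E (chromosome 3) read 11.75, 11.81 and 11.71 on the osnox2 drought arrays and 11.35, 11.25 and 10.99 on the osnox2 control arrays. In WT it read 11.78, 11.83 and 11.63 under drought and 11.44, 11.18 and 11.27 under control. The groups did not overlap in either genotype, and the 3 arrays that stood apart lay among the other control arrays or just above them. Its change over both genotypes was 0.51 ± 0.09 (adjusted p = 0.0140, limma). In the separate comparisons with all 12 arrays it was 0.56 ± 0.12 in osnox2 (adjusted p = 0.0809) and 0.45 ± 0.12 in WT (adjusted p = 0.200). With those 3 left out, it rose by 0.77 ± 0.12 in osnox2 (adjusted p = 0.0243) and by 0.52 ± 0.09 in WT (adjusted p = 0.0252).

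HSFA2C (chromosome 10) is annotated as a transcribed pseudogene whose record also carries the name ARD1, an acireductone dioxygenase, so its probe sets cannot be assigned to the factor with certainty. The same holds for HSFA2D, whose record carries the names ARD and ARD2. HSFA2C read 10.22, 9.73 and 9.40 in osnox2 drought and 9.55, 9.62 and 7.83 in osnox2 control, against 9.46, 8.87 and 8.97 in WT drought and 8.98, 7.93 and 7.90 in WT control. The 3 arrays that stood apart sat within the drought values of their genotype, and the other control arrays below them. HSFA2C rose by 1.95 ± 0.32 in osnox2 without the 3 arrays (adjusted p = 0.0316), where its change in WT was 1.18 ± 0.26 (adjusted p = 0.0508). With all 12 arrays the changes were 0.78 ± 0.47 in osnox2 and 0.83 ± 0.47 in WT (adjusted p = 0.395 and 0.577). Its second probe set differed, at 0.53 ± 0.34 in osnox2 and -1.16 ± 0.27 in WT without the 3 arrays, and passed in neither. HSFA2D stayed between 12.61 and 12.89 on every array, with changes of 0.02 ± 0.09 in osnox2 and -0.11 ± 0.09 in WT, whereas its second probe set ranged from 7.88 to 13.94 and was not called in either genotype.

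HSFA6B and HSFA2A had large changes that the test did not separate from the spread. HSFA6B is related to factors of the ABA response in Arabidopsis. It read 6.58, 6.20 and 7.52 in osnox2 drought and 2.67, 5.5 and 5.45 in osnox2 control, against 6.83, 7.92 and 8.94 in WT drought and 2.50, 6.74 and 4.21 in WT control. The groups did not overlap in either genotype, but the control values were dim and spread widely, and the lowest of each genotype came from an array that stood apart. Its changes were 2.22 ± 1.07 in osnox2 (adjusted p = 0.298) and 3.41 ± 1.07 in WT (adjusted p = 0.271) with all 12 arrays, and 1.31 ± 1.04 in osnox2 (adjusted p = 0.635) and 2.42 ± 0.82 in WT (adjusted p = 0.162) without the 3. HSFA2A read 6.32, 6.34 and 5.92 in osnox2 drought and 3.82, 5.48 and 2.35 in osnox2 control, against 4.12, 5.35 and 6.58 in WT drought and 3.86, 6.12 and 4.11 in WT control. Its groups were apart in osnox2 and overlapped in WT, and the changes were 2.31 ± 0.89 in osnox2 (adjusted p = 0.224) and 0.65 ± 0.89 in WT (adjusted p = 0.848). On the other 9 arrays they were 3.84 ± 1.02 in osnox2, against a single control array, and 0.24 ± 0.81 in WT. HSFA2A stands on a dim probe set whose probes can also match other transcripts. Its second probe set differed, at 1.36 ± 1.66 in osnox2 and 1.29 ± 1.31 in WT in that fit.

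The other class A factors gave no call in either genotype under either set of arrays. HSFA1, in tomato the master activator of the heat response, read 10.67 to 11.00 under drought and 10.75 to 11.31 under control, with changes of -0.04 ± 0.14 in osnox2 and -0.24 ± 0.14 in WT with all 12 arrays, and 0.04 ± 0.15 in osnox2 and -0.10 ± 0.12 in WT without the 3. HSFA3, HSFA5 and HSFA9 had changes between -0.14 and 0.14 with all 12 arrays. HSFA2B was dim and scattered, from 1.54 on osnox2 control 3 to 6.28 on WT drought 3, and rose over both genotypes only in the fit without the 3 arrays (2.67 ± 0.63, adjusted p = 0.0423). HSFA4D, the gene of the lesion mutant spotted leaf 7 in rice, is described with the genotypes. HSFA4B had changes of 0.07 ± 0.35 in osnox2 and 0.01 ± 0.35 in WT with all 12 arrays, and 0.60 ± 0.25 in osnox2 and 0.44 ± 0.20 in WT without the 3.

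Among the factors called in the separate comparisons of each genotype, the 3 class B2 genes had the largest rises in the fit without the 3 arrays. HSFB2B (chromosome 8) read 8.56, 8.72 and 8.94 in osnox2 drought and 7.37, 7.34 and 4.92 in osnox2 control, against 8.05, 8.81 and 7.40 in WT drought and 5.79, 3.50 and 5.0 in WT control. All 6 drought arrays were above all 6 control arrays, and the highest control values came from arrays that stood apart. Over both genotypes it rose by 2.76 ± 0.51 (adjusted p = 0.0185). In the separate comparisons it had 2.20 ± 0.71 in osnox2 and 3.32 ± 0.71 in WT with all 12 arrays (adjusted p = 0.176 and 0.116). On the other 9 arrays it rose by 3.82 ± 0.63 in osnox2 (adjusted p = 0.0308) and by 3.84 ± 0.50 in WT (adjusted p = 0.00977). Several control values were near or below the array medians, so the size of this rise depends on dim signals.

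HSFB2A (chromosome 4) depended most on the 3 arrays among the factors that rose. It read 11.25, 10.88 and 10.06 in osnox2 drought and 12.04, 12.07 and 6.92 in osnox2 control, against 9.69, 9.65 and 8.42 in WT drought and 10.71, 6.63 and 6.51 in WT control. The 3 control arrays that stood apart were higher than the drought arrays of their genotype, while the other 3 were lower than every drought array. With all 12 arrays its change was 0.39 ± 1.39 in osnox2 (adjusted p = 0.906) and 1.31 ± 1.39 in WT (adjusted p = 0.796). In the fit of 9 arrays it rose by 3.81 ± 0.55 in osnox2 (adjusted p = 0.0215) and by 2.68 ± 0.44 in WT (adjusted p = 0.0199). Its second probe set had 3.64 ± 0.50 in osnox2 (adjusted p = 0.0171) and 1.81 ± 0.39 in WT (adjusted p = 0.0515) in that fit.

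HSFB2C (chromosome 9) followed the same pattern. It read 10.11, 10.25 and 10.04 in osnox2 drought and 10.22, 10.22 and 7.59 in osnox2 control, against 9.35, 9.41 and 10.01 in WT drought and 8.49, 7.58 and 7.34 in WT control. The osnox2 control arrays that stood apart matched the drought arrays, whereas in WT all 3 drought arrays were above all 3 control arrays. Its change was 0.79 ± 0.60 in osnox2 and 1.79 ± 0.60 in WT with all 12 arrays (adjusted p = 0.508 and 0.318). Without the 3 arrays it rose by 2.54 ± 0.26 in osnox2 (adjusted p = 0.00607) and by 2.13 ± 0.21 in WT (adjusted p = 0.00496). Of its other probe sets, the second was called in both genotypes in that fit (3.07 ± 0.42 in osnox2 and 2.44 ± 0.33 in WT) and the third, a set whose probes can also match other transcripts, in WT (2.82 ± 0.51) but not in osnox2 (1.39 ± 0.64, adjusted p = 0.374).

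HSFB1 (chromosome 9), described in depth after its values were seen, read 11.20, 10.74 and 10.76 in osnox2 drought and 8.54, 9.13 and 9.82 in osnox2 control. In WT it read 9.25, 10.47 and 10.06 under drought and 7.63, 8.81 and 8.56 under control. Drought arrays were above control arrays within each genotype, and the lowest reading of each control group came from an array that stood apart. It rose by 1.66 ± 0.29 over both genotypes (adjusted p = 0.0150), and by 1.16 ± 0.26 without the 3 arrays (adjusted p = 0.0342). HSFB4B, whose Arabidopsis relative acts in the root tip, read 6.15 to 6.76 under drought and 5.65 to 6.98 under control and was not called.

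**Figure D2:**
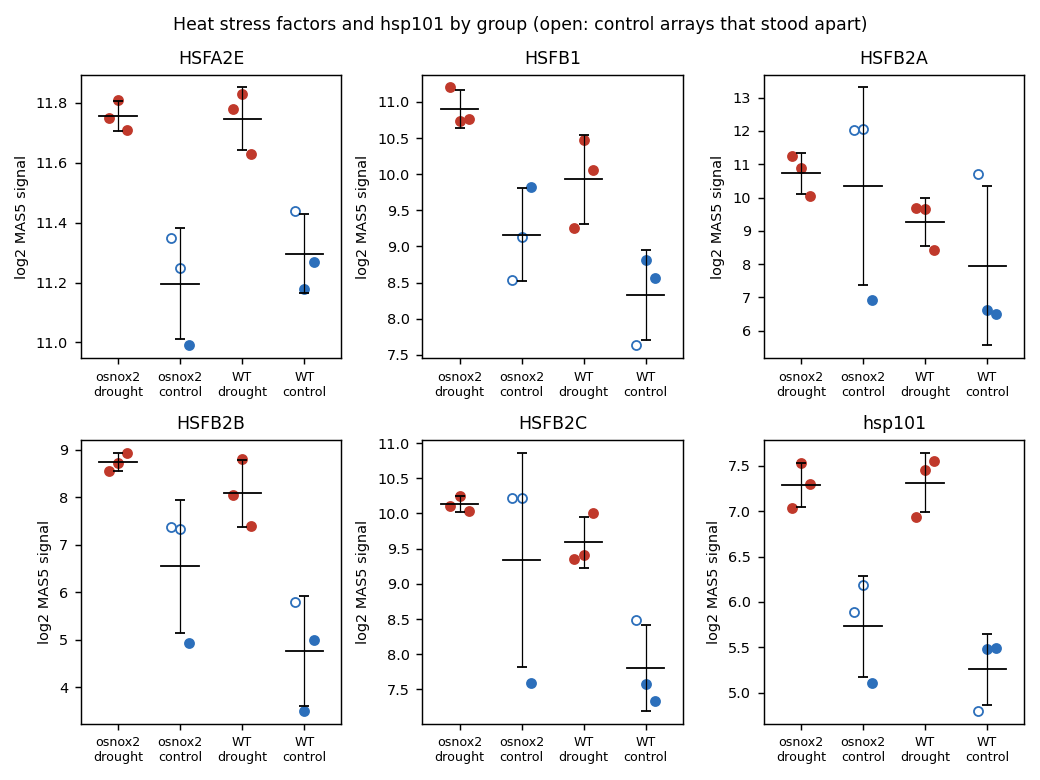
Log2 MAS5 signal of 5 heat stress factors and hsp101 in each group, with 1 point per array (open points are the 3 control arrays that stood apart), the group mean as a line and bars of 1 SD (n = 3). Each panel has its own vertical axis. For HSFB2A and HSFB2C the open points of the osnox2 control lie level with or above the drought points, and for hsp101 all drought points lie above all control points.

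The class C factors, which in grasses form a larger group than in Arabidopsis, gave no call in either genotype. HSFC1B (chromosome 1) had the widest range over the 12 arrays of any kept member, 7.52, and it followed the 3 arrays that stood apart. It read 6.00, 5.23 and 4.30 on these 3, against 11.25, 11.55 and 11.61 on the other control arrays and 10.96 to 11.82 on the 6 drought arrays. Its change with drought was 3.82 ± 1.89 in osnox2 (adjusted p = 0.310) and 2.46 ± 1.89 in WT (adjusted p = 0.698) with all 12 arrays. With those 3 left out, it was 0.06 ± 0.23 in osnox2 and 0.04 ± 0.18 in WT. HSFC2A read 5.74 to 8.03 under drought and 3.95 to 7.62 under control, and rose over both genotypes only without the 3 arrays (2.26 ± 0.54, adjusted p = 0.0439). HSFC1A read 4.19 to 6.41 under drought and 4.92 to 6.67 under control.

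Other members also differed on the 3 arrays that stood apart, in both directions. Against the other 3 control arrays more members were higher than lower, while over all probe sets more were lower. Together with HSFC1B, HSP17.7 was below the other 9 arrays on all 3, and HSFA4B was above, as were 9.44% of all probe sets, while 15.1% were below. Against the other 3 control arrays, 11 members were higher on the 3 arrays and 4 lower, as were 17.2% (higher) and 25.7% (lower) of all probe sets. The mean difference between the 3 arrays and the other 3 control arrays was 4.91 for HSFB2A, 2.36 for HSFB2B, 2.14 for HSFB2C and 0.27 for hsp101. The part of the clock difference in these values was not tested.

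The disaggregase gene hsp101 (chromosome 5, also named CLPB1) encodes the cytosolic HSP100 that Arabidopsis needs to survive heat. It read 7.04, 7.53 and 7.30 in osnox2 drought and 5.89, 6.19 and 5.11 in osnox2 control, against 6.94, 7.46 and 7.55 in WT drought and 4.80, 5.48 and 5.49 in WT control. Every drought array was above every control array of both genotypes, and the 3 arrays that stood apart gave both the highest and the lowest control readings. Over both genotypes it rose by 1.81 ± 0.24 (adjusted p = 0.00636). The change was 1.56 ± 0.34 in osnox2 (adjusted p = 0.0824, 2.94-fold) and 2.06 ± 0.34 in WT (adjusted p = 0.0577, 4.17-fold), both short of the threshold with all 12 arrays. The hsp101 readings of WT control and of osnox2 control 3 were near or below the array medians, so these sizes depend on dim signals. On the other 9 arrays it rose by 2.18 ± 0.36 in osnox2 (adjusted p = 0.0297) and by 1.83 ± 0.28 in WT (adjusted p = 0.0165).

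The HSP90 genes had small changes. HSP81-2 and HSP81-3 are neighbours on chromosome 9, and HSP81-1 lies on chromosome 8. HSP81-3 read 14.69, 14.63 and 14.83 in osnox2 drought and 15.02, 14.74 and 14.59 in osnox2 control, against 14.39, 14.49 and 14.54 in WT drought and 14.51, 14.05 and 14.39 in WT control. The drought and control arrays overlapped in both genotypes. Its changes were -0.07 ± 0.14 in osnox2 and 0.16 ± 0.14 in WT (adjusted p = 0.826 and 0.743), and 0.13 ± 0.14 in osnox2 and 0.25 ± 0.11 in WT without the 3 arrays. It stands on a probe set that can match several transcripts, and its 5 probe sets disagreed: without the 3 arrays, the second and the third by level were called in WT (0.47 ± 0.09 and 0.63 ± 0.09) and the fourth had -0.08 ± 0.23. HSP81-2 stayed between 14.11 and 14.40 on all arrays, with changes of 0.05 ± 0.10 in osnox2 and in WT.

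HSP81-1, described in depth after its values were seen, read 14.18, 14.21 and 14.16 in osnox2 drought and 14.46, 14.28 and 13.54 in osnox2 control. In WT it read 13.61, 13.49 and 13.55 under drought and 13.87, 12.94 and 13.11 under control. The 3 arrays that stood apart were the highest of their genotype. Its change was 0.09 ± 0.26 in osnox2 and 0.24 ± 0.26 in WT with all 12 arrays (adjusted p = 0.884 and 0.793). In the fit of 9 arrays it rose by 0.65 ± 0.10 in osnox2 (adjusted p = 0.0250) and by 0.52 ± 0.08 in WT (adjusted p = 0.0145). Its second probe set, at 6.71 to 8.68, had -0.86 ± 0.57 in osnox2 and -0.29 ± 0.45 in WT in that fit.

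Of the 14 small heat shock proteins, 11 were kept. Over both genotypes 4 of them rose with all 12 arrays (HSP16.9A, HSP16.9B, HSP17.7 and HSP26.2), where 2.57% of all probe sets were called higher. The median of these 11 over both genotypes was 0.924 with all 12 arrays and 0.873 without the 3. HSP17.4, HSP18.1 and HSP17.7 lie side by side on chromosome 3, close to the left-out hsp17.9, and HSP16.6, HSP17.9B, HSP16.9A and HSP16.9B lie together on chromosome 1. Near-identical neighbours of this kind can share probes, and HSP16.9A and HSP16.9B share a synonym, so their values are not certain to be independent.

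In the chromosome 3 group, HSP18.1 read 8.33, 8.34 and 8.42 in osnox2 drought and 7.97, 8.16 and 6.06 in osnox2 control, against 7.78, 7.97 and 8.04 in WT drought and 6.00, 6.80 and 6.64 in WT control. Drought arrays were above control arrays in each genotype. Its change was 0.97 ± 0.47 in osnox2 and 1.45 ± 0.47 in WT with all 12 arrays (adjusted p = 0.298 and 0.284), and it rose by 2.31 ± 0.22 in osnox2 (adjusted p = 0.00536) and 1.21 ± 0.17 in WT (adjusted p = 0.0129) without the 3. HSP18.1 stands on a probe set whose probes can also match other transcripts. Its second probe set had 2.48 ± 0.27 in osnox2 and 2.05 ± 0.21 in WT without the 3 arrays, so the size of the WT change depended on the probe set. HSP18.1 also carries the synonym OSHSP18.0 but is not the gene HSP18.0 that the rule left out.

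HSP17.4 read 9.58, 9.40 and 9.20 in osnox2 drought and 9.12, 9.44 and 7.21 in osnox2 control, against 8.80, 8.72 and 9.37 in WT drought and 8.09, 7.33 and 7.54 in WT control. The osnox2 groups overlapped through the control arrays that stood apart, and the WT groups did not overlap. It had 0.81 ± 0.49 in osnox2 and 1.31 ± 0.49 in WT with all 12 arrays (adjusted p = 0.395 and 0.363), and rose by 2.18 ± 0.28 in osnox2 (adjusted p = 0.0128) and 1.53 ± 0.22 in WT (adjusted p = 0.0132) without the 3. HSP17.7, whose lowest 3 readings were the 3 arrays that stood apart (7.98 to 8.28), read 9.36 to 9.65 under drought and 8.94 to 9.19 on the other control arrays. It rose by 0.92 ± 0.22 over both genotypes (adjusted p = 0.0469) and by 0.46 ± 0.10 without the 3 arrays (adjusted p = 0.0312).

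In the chromosome 1 group, HSP17.9B read 12.37, 12.72 and 12.56 in osnox2 drought and 12.72, 12.69 and 10.61 in osnox2 control, against 11.88, 12.09 and 12.43 in WT drought and 13.44, 11.81 and 11.56 in WT control. The 3 arrays that stood apart were within or above the drought readings of their genotype. Its changes with all 12 arrays were 0.54 ± 0.58 in osnox2 and -0.14 ± 0.58 in WT (adjusted p = 0.646 and 0.960). Without the 3 it rose by 1.94 ± 0.22 in osnox2 (adjusted p = 0.00876), against a single control array, and had 0.45 ± 0.17 in WT (adjusted p = 0.207). HSP16.9B read 7.10 to 7.94 under drought and 6.07 to 6.84 under control, and rose by 1.01 ± 0.16 over both genotypes (adjusted p = 0.0104), and by 0.87 ± 0.19 without the 3 arrays (adjusted p = 0.0301). HSP16.9A read 6.92 to 7.99 under drought and 5.64 to 7.2 under control, where its highest control value came from WT control 1, and rose by 1.19 ± 0.24 over both genotypes (adjusted p = 0.0275), and by 1.33 ± 0.27 without the 3 arrays (adjusted p = 0.0262). HSP16.6 was dim and not called.

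HSP26.2 (chromosome 6) rose with drought, and its arrays were also separated by genotype. It read 9.41, 8.75 and 9.19 in osnox2 drought and 8.21, 8.60 and 8.00 in osnox2 control, against 8.10, 8.33 and 8.21 in WT drought and 6.99, 7.22 and 7.16 in WT control. Drought was above control in each genotype, and osnox2 was above WT in each condition without overlap. It rose by 0.97 ± 0.15 over both genotypes (adjusted p = 0.0101). The separate changes were 0.85 ± 0.21 in osnox2 and 1.09 ± 0.21 in WT (adjusted p = 0.108 and 0.0928), and 1.12 ± 0.26 in osnox2 and 1.02 ± 0.20 in WT without the 3 arrays (adjusted p = 0.0821 and 0.0398). It stands on a probe set that can match several transcripts.

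The other small heat shock proteins gave no call. HSP22.3 was the only member with all 3 WT drought arrays below all 3 WT control arrays, where 8.07% of all probe sets lay below in this way. It read 6.97 to 7.28 against 7.75 to 8.34. Its change in WT was -0.93 ± 0.31 with all 12 arrays (adjusted p = 0.314, limma) and -1.08 ± 0.24 without the 3. HSP21.9 and HSP17.8 were dim and scattered over 4.10 and 4.62 log2 units. The 5 small heat shock protein genes that the rule left out gave more calls with all 12 arrays: in osnox2 2 rose (HSP18.0 and hsp17.9) and HSP18.8 fell, and in WT the same 2 rose. Without the 3 arrays 4 rose and 1 fell in each genotype.

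**Figure D3:**
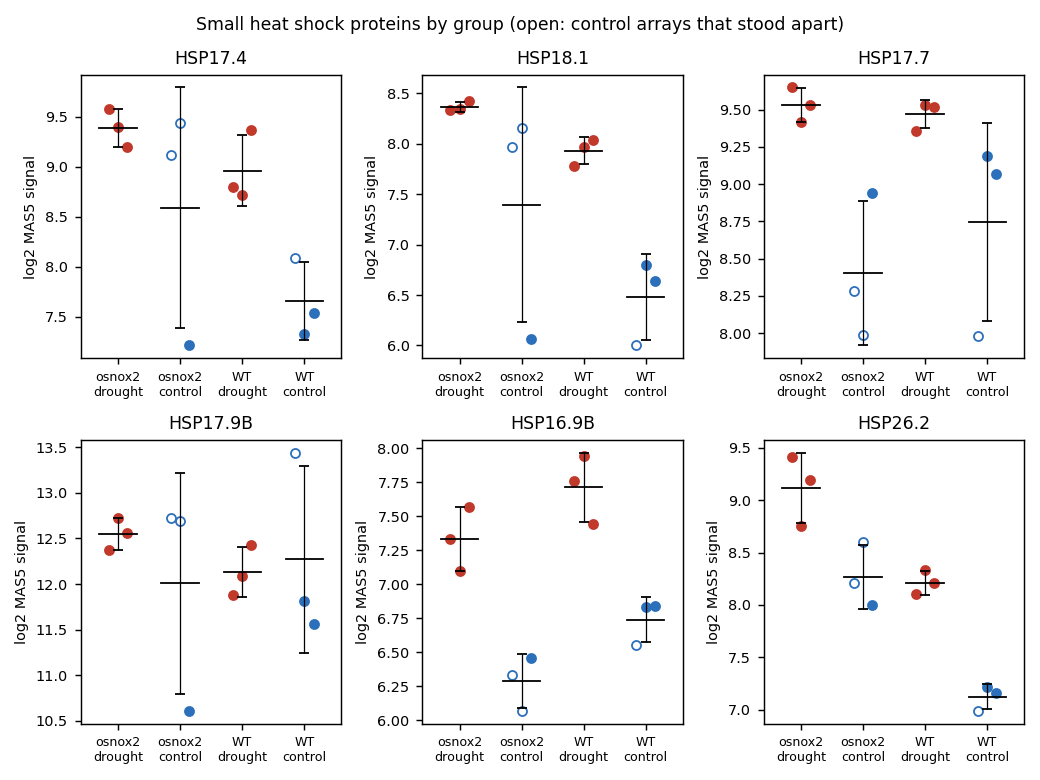
Log2 MAS5 signal of 6 small heat shock protein genes in each group, with 1 point per array (open points are the 3 control arrays that stood apart), the group mean as a line and bars of 1 SD (n = 3). Each panel has its own vertical axis. HSP26.2 is higher in osnox2 than in WT within each condition, and the open points of HSP17.7 lie below all others.

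**Figure D4:**
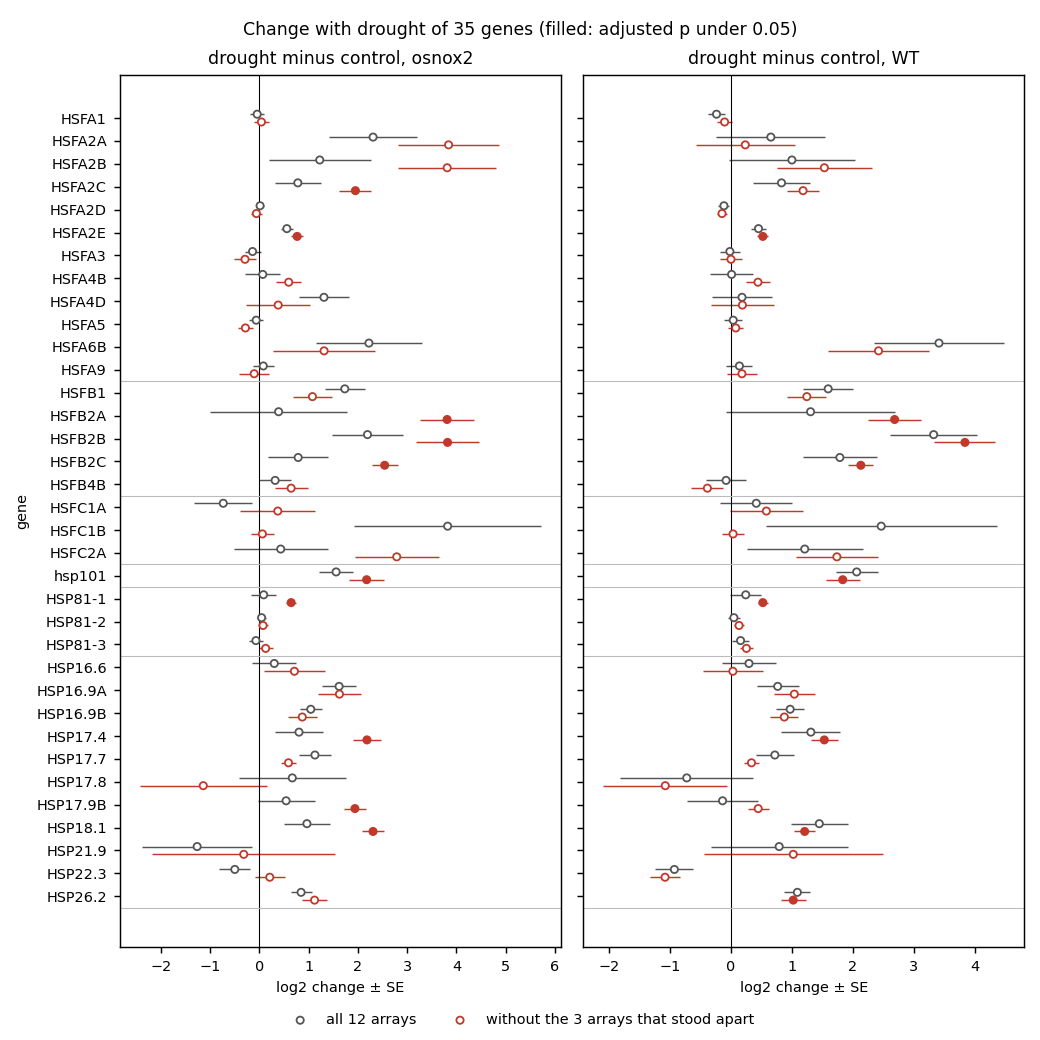
Log2 change ± SE of the 35 kept members, drought minus control, in osnox2 (left) and WT (right), with all 12 arrays (grey) and without the 3 control arrays that stood apart (red). Filled points have an adjusted p under 0.05 over all probe sets. Filled points are found only in the fit without the 3 arrays, 10 in osnox2 and 9 in WT, and all lie to the right of 0.

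The next comparison asks whether osnox2 responded to drought unlike WT. Limma called 0 of 35 members for the difference of the drought responses with all 12 arrays, where 0.0% of all probe sets were called. An unadjusted p under 0.05 was found for 0 members and for 1075 of the 32012 probe sets. The members' median difference, osnox2 minus WT, was -0.003, beside 0.0663 over all probe sets. With those 3 arrays left out, it was 0.153 for the members, beside 0.0225 over all probe sets. The genes called in a single genotype in that fit did not pass this test: the difference was 1.49 ± 0.28 for HSP17.9B (adjusted p = 0.213), 0.77 ± 0.41 for HSFA2C (adjusted p = 0.781) and 0.10 ± 0.33 for HSP26.2 (adjusted p = 0.984). For hsp101 it was 0.35 ± 0.45 in that fit and -0.50 ± 0.49 with all 12 arrays. The largest differences with all 12 arrays were -2.05 ± 1.59 for HSP21.9 and 1.65 ± 1.26 for HSFA2A (adjusted p = 0.986 for both), and on the other 9 arrays they were -1.34 ± 2.37 for HSP21.9 (adjusted p = 0.962) and 3.61 ± 1.30 for HSFA2A (adjusted p = 0.560). The second probe set of HSFA2A changed by 1.36 ± 1.66 in osnox2 and 1.29 ± 1.31 in WT on those 9 arrays. The size of the HSFA2A difference therefore depended on the probe set. A miss of the threshold does not show that the genotypes responded alike.

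Between the genotypes under control conditions, 0 of 35 members were called with all 12 arrays (0.131% of all probe sets). An unadjusted p under 0.05 was found for 6 members and for 2196 of the 32012 probe sets. The members' median, osnox2 minus WT, was 0.178 with all 12 arrays and -0.162 without the 3, beside -0.0613 and -0.0263 over all probe sets, so its direction turned with the arrays that stood apart. The arrays that stood apart are 2 of 3 in the osnox2 control and 1 of 3 in the WT control. The largest differences with all 12 arrays were 2.80 ± 1.12 for HSP21.9 and 2.39 ± 1.39 for HSFB2A (adjusted p = 0.712 and 0.758). Without the 3 they were 2.08 ± 1.97 for HSP21.9 (adjusted p = 0.827) and 0.35 ± 0.58 for HSFB2A (adjusted p = 0.927), so the size of the HSFB2A difference rested on those arrays. HSP21.9 read 5.83, 5.90 and 4.44 in osnox2 control and 3.06, 2.38 and 2.35 in WT control, and 4.92, 2.14 and 5.32 in osnox2 drought and 2.65, 1.80 and 5.70 in WT drought. Its control groups did not overlap, but most of these readings were dim. Leaving out osnox2 control 3 alone gave 6 calls, all higher in osnox2, where 3.9% of all probe sets were called. The osnox2 control then held only arrays that stood apart, against 1 of 3 in the WT control. In that fit genotype and standing apart cannot be told apart.

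Under drought the genotype comparison contains none of the 3 arrays, which enter it only through the shared estimate of the spread. With all 12 arrays, 1607 of the 32012 probe sets had an unadjusted p under 0.05 in this comparison (limma). Limma called 0 of 35 members with all 12 arrays (0.103% of all probe sets), 4 with an unadjusted p under 0.05, and 1 without the 3 (0.59% of all probe sets). That gene was HSP81-1, higher in osnox2 by 0.63 ± 0.07 (adjusted p = 0.0117), against 0.63 ± 0.26 with the wider spread of all 12 arrays (adjusted p = 0.931). Its osnox2 drought arrays (14.16 to 14.21) lay above its WT drought arrays (13.49 to 13.61). HSP26.2 differed by 0.91 ± 0.21 under drought (adjusted p = 0.296) and by 1.15 ± 0.21 under control (adjusted p = 0.104) with all 12 arrays. With those 3 left out, it differed by 0.91 ± 0.18 under drought (adjusted p = 0.0879) and by 0.81 ± 0.27 under control (adjusted p = 0.336).

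In all, 9 members read higher on all 3 osnox2 drought arrays than on all 3 WT drought arrays, as did 8.26% of all probe sets, and 4 were higher in this way under control, as were 3.55% of all probe sets. HSP26.2 and HSP81-3 were on both lists. In the other direction, HSFA5 read lower on all 3 osnox2 drought arrays than on all 3 WT drought arrays, as did 8.21% of all probe sets. HSP16.9A and HSP16.9B were lower in this way under control, as were 4.92% of all probe sets. HSP81-3 differed by 0.24 ± 0.14 under drought and 0.47 ± 0.14 under control with all 12 arrays, and by 0.24 ± 0.10 and 0.37 ± 0.15 without the 3, and was not called. The largest differences under drought were 1.48 ± 1.39 for HSFB2A and 1.31 ± 0.50 for HSFA4D (adjusted p = 0.856 for HSFA4D) with all 12 arrays, and 1.48 ± 0.39 for HSFB2A (adjusted p = 0.169) and 1.31 ± 0.46 for HSFA4D (adjusted p = 0.306) with the spread of the other 9. HSFA4D read 12.62, 11.50 and 11.36 in osnox2 drought and 10.92, 11.08 and 9.56 in WT drought, and 10.09, 10.01 and 11.44 in osnox2 control and 10.35, 10.00 and 10.67 in WT control. The drought groups did not overlap, and the control groups did.

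**Figure D5:**
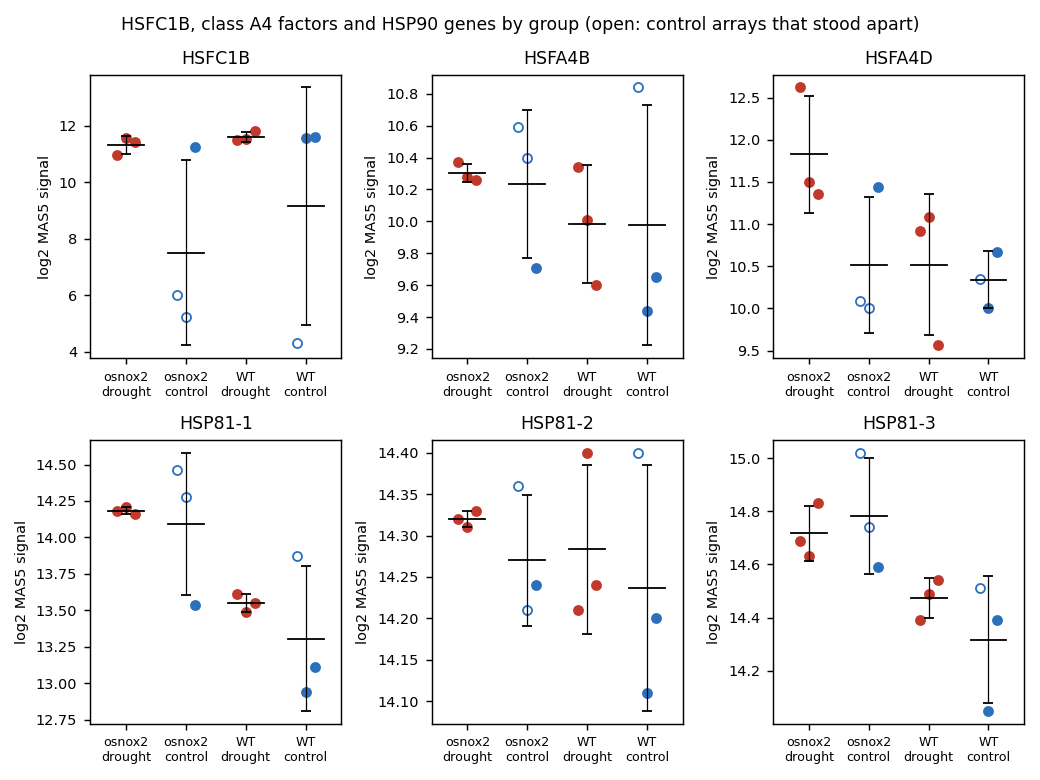
Log2 MAS5 signal of HSFC1B, both class A4 factors and the HSP90 genes in each group, with 1 point per array (open points are the 3 control arrays that stood apart), the group mean as a line and bars of 1 SD (n = 3). Each panel has its own vertical axis. The open points of HSFC1B lie between 4.30 and 6.00 while all others lie between 10.96 and 11.82, and HSP81-1 is higher in osnox2 drought than in WT drought without overlap.

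Other genes of protein folding and repair were taken from a list of names for co-chaperones, organelle chaperones and their regulators, 39 of them kept. With all 12 arrays 0 of 39 were called in either drought comparison, and their median was 0.116 in osnox2 and 0.032 in WT. An unadjusted p under 0.05 was found for 4 of the 39 in osnox2 and 2 in WT. Of all 32012 probe sets, 5765 in osnox2 and 3461 in WT had such a p (limma). In the fit of 9 arrays DJC27, named for a J-domain protein that works with HSP70, rose by 1.87 ± 0.18 in osnox2 (adjusted p = 0.00555) and by 1.40 ± 0.15 in WT (adjusted p = 0.00571). In the same fit 2 relatives of hsp101 rose in WT, CLPB-M by 1.73 ± 0.17 and CLPB-C by 0.44 ± 0.08, and had 0.83 ± 0.22 and 0.18 ± 0.10 in osnox2. Over the whole list the changes went both ways in that fit, with 14 of 39 above 0 in osnox2 and 20 of 39 in WT. Some names on the list belong to other proteins, and the 29 genes left without them gave the same calls in these comparisons.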

How the data were processed

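Log2 values of 57258 probe sets on 12 arrays were deposited by the authors, who made them with MAS5 per the submitters' processing notes (version not stated). On the linear scale, means trimmed by 2% at each end were 497 to 498. They were used without further normalization. After 64 reporter probe sets were left out, the 32012 that exceeded the array median on 3 or more arrays were kept. Genes were named through the annotation of assembly ASM3414082v1: 22436 probe sets matched 1 gene, 95 several and 34663 none. Group means were fitted with limma 3.58.1 in R 4.3.3 (eBayes with an intensity trend), all 12 arrays sharing one spread, two-sided, and the fit was tested on simulated data. Values were prepared and drawn with Python 3.11.15.

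Members, lists and tests were chosen with earlier results of these data known. Full values are given for members called with all 12 arrays in any of the 5 comparisons of each genotype, between genotypes or of their responses (0), the 10 largest of the 11 called in a drought comparison without the 3 arrays, HSFB2A, HSP81-3, and the 2 largest changes of each comparison, 16 in all; members called only in the contrast over both genotypes, added later, are given by ranges, apart from HSFB1. The labels call the replicates biological, without saying whether numbers mark pots, so the numbers were not used as pairs. Of 18 same-numbered pairs of arrays, 5 had residual correlations over 0.1 (range -0.251 to 0.368). The control arrays that stood apart enter these correlations, which therefore cannot show whether numbers mark pots.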

Additional observations from a re-analysis of the deposited data

How the results depend on the processing

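Counts of called members changed mainly with the 3 arrays that stood apart. Without them the count was 10 in osnox2 drought, 9 in WT drought, 1 between genotypes under drought and 17 over both genotypes, against 0, 0, 0 and 8 with all 12 arrays, and the median between genotypes under control turned to -0.162. Leaving out 1 array at a time gave 0 to 8 in osnox2 drought (medians 0.116 to 0.921), 0 to 5 in WT drought, 0 to 6 between genotypes under control and 4 to 14 over both genotypes (medians 0.424 to 0.811). The counts of 8, 5, 6 and 14 came without osnox2 control 3, when the osnox2 control held only arrays that stood apart. In osnox2 drought the count was 6 without WT control 1, and in WT drought 1 without WT drought 1. In WT drought it was 1 with centring on array medians, with quantile normalization and with offsets of 16 and 64. It was 1 between genotypes under drought with only the groups compared. Over both genotypes it was 3 with a filter at the 75th percentile. That filter kept 15784 probe sets, of which 833 were called higher and 499 lower, and dimmer members that it left out could not be called. With a fold of at least 2 the count over both genotypes was 5, where 370 of the 32012 probe sets were called higher and 218 lower. With an offset of 64 the medians were 0.23 in osnox2 drought, 0.241 in WT drought and 0.412 over both genotypes. With the replicate number as a block and all 12 arrays, the counts were 0 in osnox2 drought, WT drought and both genotype comparisons. Over both genotypes the count was 8 in that fit, where 731 of the 32012 probe sets were called higher and 419 lower. Of the 12 arrays, 6 correlated best with one of their own number. The block without the 3 arrays gave 8 in osnox2 drought, 10 in WT drought, 1 between genotypes under drought, 13 over both genotypes and a median of -0.15 between genotypes under control. Of single-gene values, 34 passed the threshold under an alternative and 1166 kept their side of it. The direction of changes that were not called could turn. For HSP17.9B in WT drought the change was -0.14 with all 12 arrays and 0.45 without the 3. The cause of these shifts was not tested. The number of arrays and dim control signals limit the changes of HSFB2B, HSFA6B, HSFA2A and hsp101.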
